A study of Mus musculus with 23 samples.

Results

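The 10 genes described here are *Fga*, *Fgb* and *Fgg*, which encode the 3 chains of fibrinogen, the coagulation factor genes *F2*, *F5*, *F7*, *F9*, *F10* and *F11*, and *Serpinc1*, which encodes antithrombin. They were matched by symbol in a table of raw counts that holds 27179 genes, of which 20380 had a read, and all 10 were found and had reads in all 15 mice. RNA was sequenced from liver tissue without visible tumors of 6 Ctrl, 6 ABpIF/+ and 3 ABpIF/F mice, all females. The mice of all 3 groups carried Alb-Cre and Trp53 flx/flx, so recombination was driven by the albumin promoter in hepatocytes and the Ctrl livers were p53-deleted as well. Ctrl mice had wild type Braf and Icmt flx/+. ABpIF/+ mice had the BrafCA/+ allele, which gives BRAF V600E after recombination, and Icmt flx/+, and ABpIF/F mice had BrafCA/+ and Icmt flx/flx. The sample labels write BRAF +/+ for both mutant groups, where the series design gives BrafCA/+. No further ABpIF/F mice had been obtained, and those sequenced were killed at different ages. Ages of single mice are not given in the labels.

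The comparisons ask whether the hepatic genes of clotting were expressed differently in livers with BRAF V600E, and whether loss of both Icmt alleles went with a further difference. Hepatocytes secrete fibrinogen, prothrombin and most other clotting proteases as inactive precursors into plasma. Tissue factor with factor VII starts the cascade, factors IX, X and XI amplify it, and factor X with its cofactor, factor V, converts prothrombin to thrombin, which cuts fibrinogen to fibrin. Antithrombin inhibits thrombin and factor X. Fibrinogen is a classical acute phase protein, whose hepatic genes respond to interleukin-6, whereas most clotting proteases respond less.

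Between 24742910 and 32262649 counts per mouse fell on genes, and TMM factors were between 0.8458 and 1.24. *Icmt*, the targeted gene, was at 27.8 to 34.7 CPM (counts relative to the TMM-scaled library size) in Ctrl, 27.8 to 37.4 in ABpIF/+ and 15.2 to 16.6 in ABpIF/F mice, with no overlap between ABpIF/F and the other groups. Hepatocyte markers (8 genes, *Alb* and *Hnf4a* among them) summed to 102600 to 131300 CPM in Ctrl and 155700 to 208200 in ABpIF/+ mice, with no overlap. In ABpIF/F mice they summed to 109900 to 198700 CPM, and none was at 0. Most of each sum was *Alb*, at 76790 to 104900 CPM in Ctrl and 128900 to 186400 in ABpIF/+ mice. *Cyp2e1*, another of the 8, went the other way, at 5630 to 8704 CPM in Ctrl and 1881 to 4435 in ABpIF/+ mice. Of the 8 genes 3 rose and 3 fell in ABpIF/+ vs Ctrl, where 25.3% and 23.7% of genes at 10 CPM or more did. Of the 6 Ctrl mice, 5 carried another strain label than all 9 mutants, and only the Ctrl mouse BG3 shared the label of the mutants. The label of the 5 mice names a single B6 line with Icmt, Trp53, wild type Braf and Albcre alleles, and the other label a cross (X) of such a line to a B6 line with Trp53, Icmt and Braftm1Mmcm alleles. Apart from BG3, strain label and Braf genotype cannot be told apart. The mice were separate animals. In bulk tissue, fewer cells of a type and less RNA per cell cannot be told apart.

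The 3 fibrinogen genes are neighbours on chromosome 3 of GRCm38 (GENCODE M21). *Fgg* (Entrez 99571) lies at chr3:83007724-83015049 and *Fga* (Entrez 14161) at chr3:83026076-83033627, both on the plus strand, with 11026 bases between them. *Fgb* (Entrez 110135) follows after 6513 bases at chr3:83040141-83049863 on the minus strand. *F7* (Entrez 14068, chr8:13026034-13035809) and *F10* (Entrez 14058, chr8:13037308-13056676) are also adjacent, with 1498 bases between them, both on the plus strand. *F11* (Entrez 109821) is at chr8:45241174-45262031 on the minus strand, *F2* (Entrez 14061) at chr2:91625320-91636414 on the minus strand and *F9* (Entrez 14071) at chrX:59999464-60030759 on the plus strand. *F5* (Entrez 14067, chr1:164151838-164220277) and *Serpinc1* (Entrez 11905, chr1:160978585-161005863) are both on the plus strand of chromosome 1, with 3145974 bases between them.

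The bases before the starts of the 3 fibrinogen genes, which moved together in the mice, and of *F11* and *Serpinc1*, whose patterns over the mice were different, are shown here from RefSeq (GRCm38.p6), 5′ to 3′ on the strand of each gene. Capitals mark matches to CTGGGAA (the core of the interleukin-6 response element bound by STAT3), TTGCNNAA (C/EBP type), GTTAAT (part of an HNF1 site) and TTANNTAA (D-box type, bound by the clock output factors DBP, TEF and HLF), searched on both strands. The windows are chr3:83025903-83026075 for *Fga*, chr3:83049864-83050113 for *Fgb*, chr3:83007474-83007723 for *Fgg*, chr8:45262056-45262281 for *F11* and chr1:160978333-160978582 for *Serpinc1*.
Fga: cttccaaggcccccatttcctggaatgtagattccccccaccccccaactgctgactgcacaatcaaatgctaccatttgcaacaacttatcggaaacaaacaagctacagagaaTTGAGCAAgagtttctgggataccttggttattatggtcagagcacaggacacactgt
Fgb: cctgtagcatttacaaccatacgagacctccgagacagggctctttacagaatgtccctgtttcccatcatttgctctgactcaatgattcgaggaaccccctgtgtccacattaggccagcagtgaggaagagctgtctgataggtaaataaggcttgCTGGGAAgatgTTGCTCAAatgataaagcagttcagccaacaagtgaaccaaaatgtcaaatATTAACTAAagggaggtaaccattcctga
Fgg: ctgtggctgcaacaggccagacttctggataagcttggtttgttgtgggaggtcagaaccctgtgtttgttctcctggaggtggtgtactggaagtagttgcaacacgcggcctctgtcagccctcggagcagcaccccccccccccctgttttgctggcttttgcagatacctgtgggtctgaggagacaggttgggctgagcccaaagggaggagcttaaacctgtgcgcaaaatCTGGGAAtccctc
F11: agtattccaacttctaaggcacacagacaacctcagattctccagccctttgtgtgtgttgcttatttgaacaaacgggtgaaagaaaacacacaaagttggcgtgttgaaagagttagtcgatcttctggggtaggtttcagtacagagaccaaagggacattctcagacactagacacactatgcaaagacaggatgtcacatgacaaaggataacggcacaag
Serpinc1: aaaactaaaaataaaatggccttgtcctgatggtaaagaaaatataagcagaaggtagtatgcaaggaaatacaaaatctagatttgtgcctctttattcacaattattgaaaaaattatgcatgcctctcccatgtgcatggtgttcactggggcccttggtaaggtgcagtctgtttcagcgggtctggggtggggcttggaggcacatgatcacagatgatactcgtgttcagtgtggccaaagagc

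Each window holds the 250 bases before the start that the RefSeq table uses for the gene, and distances are counted from that start. Bases that lie in a longer gene model are not printed, which left out the last 77 bases for *Fga* (GENCODE) and the last 24 for *F11* (RefSeq). Of the windows that were searched but are not shown, that of *F9* holds 135 bases of the longest RefSeq gene span and that of *F7* lies in it with all 250 bases, so distances there do not refer to the outermost start. All 10 genes were matched to a window. CTGGGAA was found in 3 of the 10 (*Fgb*, 91 to 85 bases before the start, *Fgg*, 13 to 7 bases before it, and *F9*) and in 9.10% of all 32841 windows of this length. TTGCNNAA was found in 4 of the 10 (*Fga*, *Fgb*, *F9* and *F11*) and in 9.57% of all windows, GTTAAT in 2 (*Fga* and *Fgb*) and 6.43%, and TTANNTAA in 1 (*Fgb*) and 5.44%. Another 2 motifs were searched and are not in capitals. CAAAGNNCA (HNF4 type) was found in 3 of the 10 (*Fga*, *F7* and *F9*) and in 5.49% of all windows, and TATAAA in 0 of the 10 and 12.4%. In *Fgb* the GTTAAT match, 29 to 24 bases before the start on the reverse strand, overlaps the TTANNTAA match at 28 to 21 bases, and in *Fga* the GTTAAT match is 43 to 38 bases before the start, in the part that is not printed, as is the TTGCNNAA match of *F11*, 17 to 10 bases before the start. No match was found in the *Serpinc1* window. These matches are descriptions of letters and not sites.

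*Fga*, the gene of the fibrinogen Aα chain, was higher in the ABpIF/F livers. Its CPM ran from 3342 to 4740 with a median of 3983 in Ctrl mice and from 3622 to 9779 with a median of 4978 in ABpIF/+ mice, and were 5701 in BG183, 6703 in BG38 and 14459 in BG90 of the ABpIF/F group. All 3 ABpIF/F mice were above all 6 Ctrl mice, whereas ABpIF/+ and Ctrl overlapped and 4 of 6 ABpIF/+ mice were above every Ctrl mouse. Of all genes with a read, 12.4% had all ABpIF/F mice above all Ctrl mice, and 12.9% passed the test as higher in ABpIF/F mice. *Fga* was 2.24-fold higher in ABpIF/F mice as compared to Ctrl mice, a log2 fold change of 1.17 (SE 0.28, edgeR adjusted p = 0.00442). In ABpIF/+ vs Ctrl the log2 fold change was 0.46 (SE 0.24, edgeR adjusted p = 0.176), and in ABpIF/+ vs ABpIF/F it was -0.70 (SE 0.28, edgeR adjusted p = 0.0929).

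*Fgb*, the gene of the Bβ chain, was higher in both mutant groups. It was at 2169 to 2861 CPM with a median of 2284 in Ctrl and at 2908 to 6149 with a median of 3388 in ABpIF/+ mice. BG183, BG38 and BG90 were at 3885, 4478 and 8525 CPM. No mutant mouse overlapped with Ctrl, since the lowest of the 9, BG30 at 2908 CPM, was just above the highest Ctrl mouse at 2861 CPM. Of all genes with a read, 10.4% had every ABpIF/+ mouse above every Ctrl mouse and 17.0% passed as higher. The log2 fold change was 0.67 in ABpIF/+ vs Ctrl (SE 0.20, edgeR adjusted p = 0.0166), a 1.59-fold difference, and 1.22 in ABpIF/F vs Ctrl (SE 0.24, edgeR adjusted p = 0.000751), a 2.33-fold difference. Scaled by library size alone, the difference in ABpIF/+ vs Ctrl was 0.49 and did not pass (edgeR adjusted p = 0.0536). The mutant groups overlapped, with a log2 fold change of -0.55 in ABpIF/+ vs ABpIF/F (SE 0.24, edgeR adjusted p = 0.132).

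*Fgg*, the gene of the γ chain, followed *Fga*. Its CPM were 2629 to 3701 with a median of 3328 in Ctrl and 2892 to 6708 with a median of 4164 in ABpIF/+ mice, and 4422, 4715 and 10477 in BG183, BG38 and BG90. The ABpIF/F mice again lay above all Ctrl mice, and 4 of the 6 ABpIF/+ mice did. The log2 fold change was 1.03 in ABpIF/F vs Ctrl (SE 0.26, edgeR adjusted p = 0.00585), 0.42 in ABpIF/+ vs Ctrl (SE 0.22, edgeR adjusted p = 0.178) and -0.61 in ABpIF/+ vs ABpIF/F (SE 0.26, edgeR adjusted p = 0.117).

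**Figure D1:**
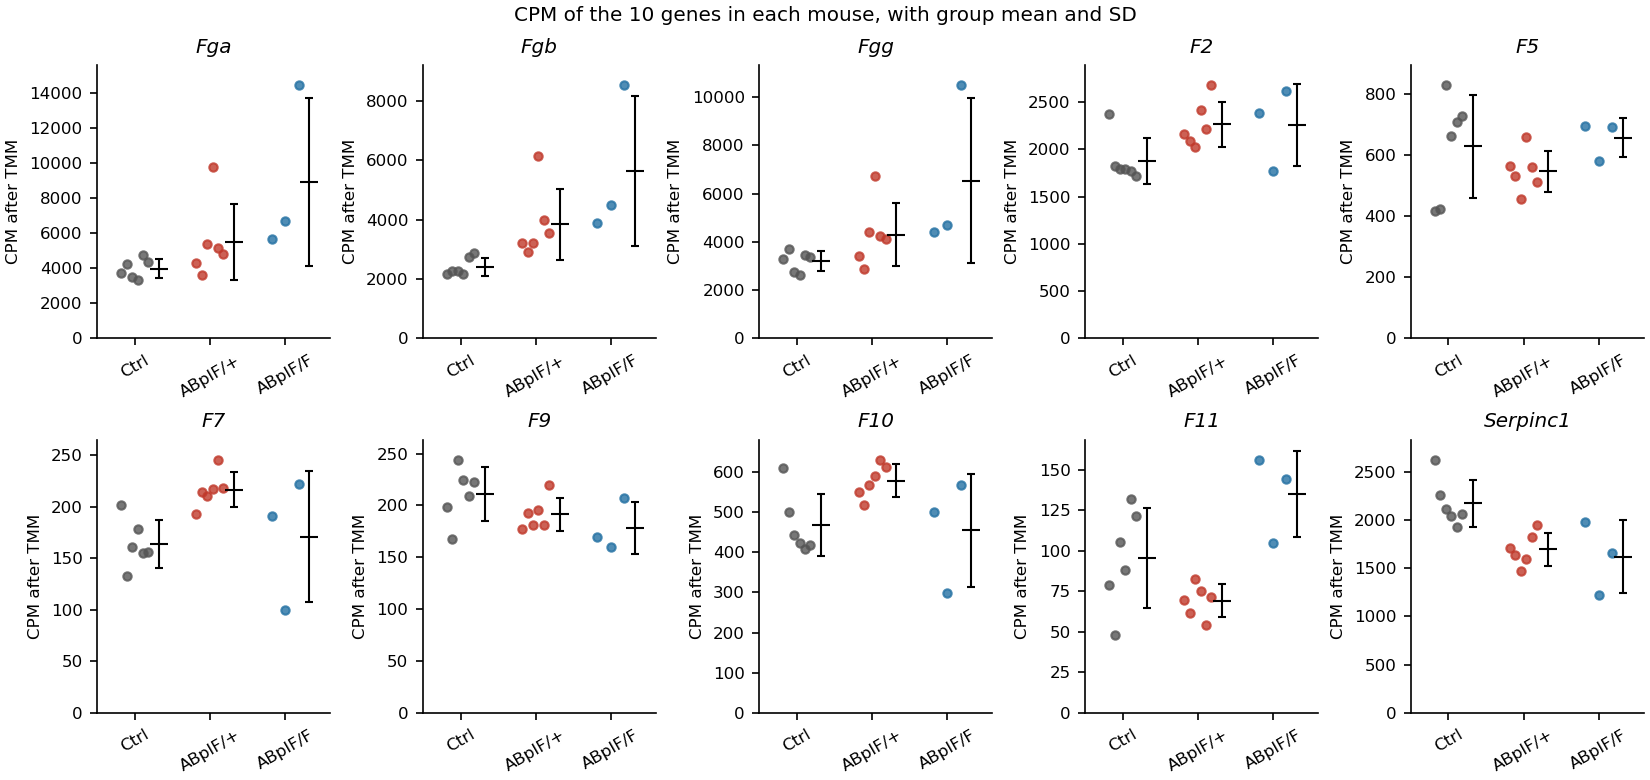
CPM after TMM of each of the 10 genes (y axis, from 0) in the 6 Ctrl, 6 ABpIF/+ and 3 ABpIF/F mice (points), with the group mean and SD beside them. The ABpIF/+ mouse BG40 and the ABpIF/F mouse BG90 are the highest points of their groups for all 3 fibrinogen genes, and *F11* separates the mutant groups from each other.

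The spread within the mutant groups was wide and came from the same mice in each chain. The SD was between 12.4% and 13.8% of the mean in Ctrl for the 3 chains, but 30.6% to 39.8% in ABpIF/+ and 44.9% to 53.5% in ABpIF/F mice. BG40 was the highest and BG30 the lowest ABpIF/+ mouse for all 3 chains, and BG90 was the highest and BG183 the lowest ABpIF/F mouse. Together the 3 genes took 1.01% ± 0.132 (SD, n = 6) of the counts in Ctrl, 1.27% ± 0.431 (SD, n = 6) in ABpIF/+ and 2.17% ± 0.893 (SD, n = 3) in ABpIF/F mice, with 2.11% in BG40 and 3.15% in BG90. Without BG90, the log2 fold changes in ABpIF/F vs Ctrl fell to 0.64 for *Fga* (edgeR adjusted p = 0.148) and 0.51 for *Fgg* (edgeR adjusted p = 0.207), neither of which passed the test, while that of *Fgb* was 0.79 and did (edgeR adjusted p = 0.0276). Without BG40, *Fgb* in ABpIF/+ vs Ctrl was at 0.48 (edgeR adjusted p = 0.0649), and all 3 chains passed the test as lower in ABpIF/+ than in ABpIF/F mice, at -0.95 for *Fga*, -0.74 for *Fgb* and -0.78 for *Fgg* (edgeR adjusted p from 0.00934 to 0.0291). They passed without BG183 as well, at -0.94, -0.76 and -0.82 (edgeR adjusted p from 0.0301 to 0.0449). Without BG90 the same differences were -0.17, -0.12 and -0.09, and none passed (edgeR adjusted p of at least 0.951).

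In the fit with the strain label as a term, which leaves BG3 as the only Ctrl mouse to compare with, none of the 3 chains passed the test against Ctrl. *Fgb* was then at 0.82 in ABpIF/+ vs Ctrl (SE 0.41, edgeR adjusted p = 0.246) and at 1.37 in ABpIF/F vs Ctrl (SE 0.44, edgeR adjusted p = 0.0536). In this fit *Fga* was at 0.56 and *Fgg* at 0.38 in ABpIF/+ vs Ctrl, against 0.46 and 0.42 without the term. In ABpIF/F vs Ctrl they were at 1.26 and 0.99, against 1.17 and 1.03. BG3 itself, at 3728, 2175 and 3289.5 CPM of *Fga*, *Fgb* and *Fgg*, was within the range of the other Ctrl mice for each chain.

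The proportions of the 3 chains, which are joined in equal numbers in the secreted protein, were compared as ratios of counts within a mouse. There were 1.65 ± 0.136 (SD, n = 6) *Fga* counts per *Fgb* count in Ctrl, 1.41 ± 0.173 (SD, n = 6) in ABpIF/+ and 1.55 ± 0.124 (SD, n = 3) in ABpIF/F mice. The ratio *Fgg* to *Fgb* was 1.33 ± 0.187, 1.12 ± 0.131 and 1.14 ± 0.0880 in the same order. Both ratios were lower in ABpIF/+ than in Ctrl mice by two-sided exact permutation tests over mice before adjustment over the 12 tests of 4 ratios and 3 comparisons (p = 0.0281 and 0.0411), and neither passed after it (adjusted p = 0.112 and 0.123). When 1 mouse was left out, adjusted p of these exact permutation tests ran from 0.0456 to 0.228 for *Fga* to *Fgb*. It ran from 0.026 to 0.228 for *Fgg* to *Fgb*, so each passed without at least 1 of the mice. The ratio *Fga* to *Fgg* was 1.25 ± 0.0913, 1.26 ± 0.101 and 1.36 ± 0.0680, and no comparison of it passed (exact permutation tests, adjusted p from 0.228 to 0.821). Every group overlapped with every other in these 3 ratios.

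*F2*, the gene of prothrombin, had higher means in both mutant groups than in Ctrl (1880 ± 243 CPM, SD, n = 6), at 2266 ± 242 (SD, n = 6) in ABpIF/+ and 2257 ± 435 (SD, n = 3) in ABpIF/F mice, and did not pass the test. It was at 1723 to 2371 CPM with a median of 1790 in Ctrl, at 2029 to 2678 with a median of 2190 in ABpIF/+, and at 2381, 1773 and 2617 in BG183, BG38 and BG90. All 6 ABpIF/+ mice were above the Ctrl median, but the Ctrl mouse BG3, at 2371 CPM, stood apart from the other 5 Ctrl mice, which were at 1723 to 1828. The log2 fold change was 0.27 in ABpIF/+ vs Ctrl (SE 0.14, edgeR adjusted p = 0.190) and 0.26 in ABpIF/F vs Ctrl (SE 0.17, edgeR adjusted p = 0.375), and with the strain label as a term both turned, to -0.07 and -0.07.

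*F7* and *F10*, the adjacent genes of factors VII and X, both had their highest mean in ABpIF/+ mice, and neither passed the test. *F7* was at 133 to 202 CPM in Ctrl, with a median of 158, at 193 to 246 in ABpIF/+, with a median of 216, and at 191, 99.3 and 222 in BG183, BG38 and BG90. Of the 6 ABpIF/+ mice 5 were above every Ctrl mouse, and the mouse that was not, BG175, was below BG3 alone. The log2 fold change in ABpIF/+ vs Ctrl was 0.40 (SE 0.15, edgeR adjusted p = 0.0592), short of the threshold. It passed with DESeq2 (0.39, adjusted p = 0.0392), in the edgeR fit of only the groups compared (0.40, adjusted p = 0.0104), without BG3 (0.47, edgeR adjusted p = 0.0283) and in the fits without the ABpIF/F mice BG38 or BG90, in which its value stayed at 0.40 with a smaller SE (0.11 and 0.14, edgeR adjusted p = 0.00946 and 0.0440). With the strain label as a term it was 0.10 (SE 0.28, edgeR adjusted p = 1.00), and by library size alone 0.23 (edgeR adjusted p = 0.227).

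*F10* was at 409 to 611 CPM with a median of 434 in Ctrl, at 518 to 632 with a median of 580 in ABpIF/+, and at 500.1, 298 and 569.5 in the ABpIF/F mice. Its log2 fold change was 0.31 in ABpIF/+ vs Ctrl (SE 0.15, edgeR adjusted p = 0.152), and -0.08 with the strain label as a term, as BG3 was the highest Ctrl mouse here too. It was 0.40 without BG3 (edgeR adjusted p = 0.0470). In ABpIF/F vs Ctrl neither gene passed, at 0.06 for *F7* and -0.04 for *F10* (edgeR adjusted p = 1.00 for both), and BG38 was the lowest of all 15 mice for both genes.

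*F5*, the gene of the cofactor of factor X, and *F9*, the gene of factor IX, did not pass the test in any comparison. *F5* was at 419 to 828 CPM in Ctrl, 456 to 658 in ABpIF/+ and 583 to 697 in ABpIF/F mice, with log2 fold changes between -0.26 and 0.06 over the 3 comparisons (edgeR adjusted p from 0.472 to 1.00). The Ctrl mice were widest here, with BG3 and malpa387 at 419 and 424 CPM and the other 4 at 662 to 828. *F9* was at 168 to 244, 177 to 219 and 159 to 207 CPM, with log2 fold changes between -0.24 and 0.10 (edgeR adjusted p from 0.317 to 0.857). By library size alone *F9* passed the test in ABpIF/+ vs Ctrl at -0.32 (edgeR adjusted p = 0.0283).

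*F11*, the gene of factor XI, was the member that differed between the 2 mutant groups. It was at 47.9 to 132 CPM with a median of 96.8 in Ctrl and at 54.2 to 82.6 with a median of 70.4 in ABpIF/+ mice, and at 156, 105 and 144 in BG183, BG38 and BG90. Every ABpIF/F mouse was above every ABpIF/+ mouse, and the Ctrl mice overlapped with both groups. Of all genes with a read, 12.7% had all ABpIF/+ mice below all ABpIF/F mice and 14.3% passed as lower. *F11* was 1.95-fold higher in ABpIF/F than in ABpIF/+ mice, a log2 fold change of -0.97 in ABpIF/+ vs ABpIF/F (SE 0.22, edgeR adjusted p = 0.00429), and this passed without each of the 15 mice in turn, at -1.12 to -0.85. Against Ctrl it was at -0.47 in ABpIF/+ (SE 0.19, edgeR adjusted p = 0.0790) and 0.50 in ABpIF/F mice (SE 0.23, edgeR adjusted p = 0.160). The lowest Ctrl mouse was malpa387, without which the difference of ABpIF/+ from Ctrl passed the test at -0.60 (edgeR adjusted p = 0.00351). It also passed with DESeq2 (-0.48, adjusted p = 0.0390), after filterByExpr (-0.49, edgeR adjusted p = 0.0453), by library size alone (-0.64, edgeR adjusted p = 0.0107) and with the clock score as a covariate (-0.45, edgeR adjusted p = 0.0250). With the strain label as a term it was -0.19 (SE 0.36, edgeR adjusted p = 1.00).

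*Serpinc1*, the gene of antithrombin, had lower means in both mutant groups than in Ctrl, without passing the test. Its CPM were 1936 to 2631 with a median of 2092 in Ctrl and 1473 to 1954 with a median of 1679 in ABpIF/+, and were 1983, 1221 and 1662 in BG183, BG38 and BG90. Of the 6 ABpIF/+ mice 5, and of the 3 ABpIF/F mice 2, were below every Ctrl mouse. The log2 fold change was -0.36 in ABpIF/+ vs Ctrl (SE 0.14, edgeR adjusted p = 0.0712) and -0.43 in ABpIF/F vs Ctrl (SE 0.18, edgeR adjusted p = 0.112). DESeq2 called both differences, at -0.37 (adjusted p = 0.00826) and -0.43 (adjusted p = 0.0186). Both also passed by library size alone (-0.53 and -0.44, edgeR adjusted p = 0.00105 and 0.0388). After filterByExpr they passed at -0.38 and -0.47 (edgeR adjusted p = 0.0340 and 0.0473). The former passed with only the groups compared and without BG38 (edgeR adjusted p = 0.0344 and 0.0333). The latter passed without BG183 at -0.60 (edgeR adjusted p = 0.0367). With the strain label as a term they were -0.63 and -0.70.

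Prothrombin and its inhibitor were also compared as the ratio of *F2* to *Serpinc1* counts within a mouse, which needs no scaling of libraries. The ratio was 0.806 to 0.918 in Ctrl with a median of 0.859, 1.21 to 1.52 in ABpIF/+ with a median of 1.32, and 1.20, 1.45 and 1.58 in BG183, BG38 and BG90. All 9 mutant mice were above all 6 Ctrl mice, BG3 included, which was at 0.901. The ratio was 1.54-fold higher in ABpIF/+ than in Ctrl mice (two-sided exact permutation test over 6 and 6 mice, p = 0.00216, the smallest that the design allows, adjusted p = 0.0259). It was 1.63-fold higher in ABpIF/F mice (exact permutation test over 3 and 6 mice, p = 0.0119, the smallest allowed, adjusted p = 0.0714). When 1 mouse was left out, the adjusted p of this exact permutation test ran from 0.0456 to 0.123. The mutant groups overlapped (exact permutation test, adjusted p = 0.614). Among mice of the shared strain label the difference of ABpIF/+ from BG3 was 0.56 on the log2 scale, against 0.63 with all Ctrl mice, and with 1 Ctrl mouse the test cannot pass.

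**Figure D2:**
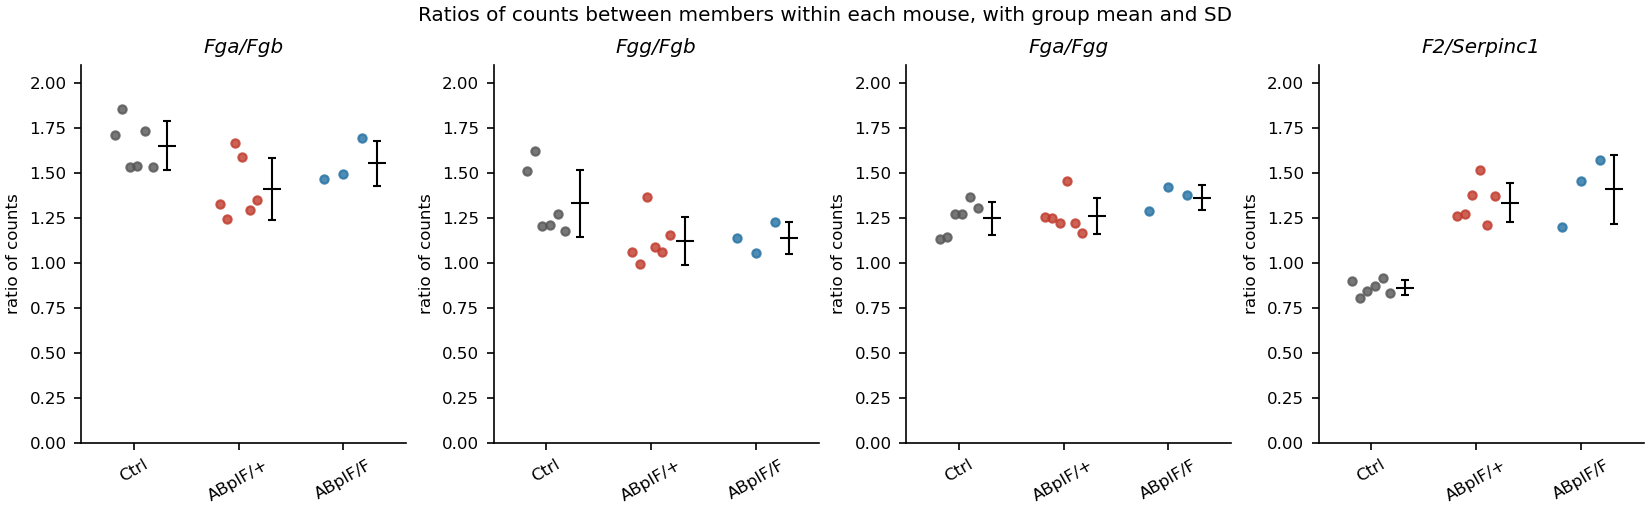
Ratios of raw counts between members within each mouse (y axis, from 0) for the 6 Ctrl, 6 ABpIF/+ and 3 ABpIF/F mice (points), with the group mean and SD beside them. The 3 ratios among the fibrinogen chains overlap between all groups, whereas for *F2* to *Serpinc1* all 9 mutant mice, at 1.20 or more, are above the highest Ctrl mouse at 0.918.

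Counted over the 10 genes, 1 passed the test as higher in ABpIF/+ vs Ctrl (*Fgb*) and 0 as lower, where the edgeR test called 17.0% of the 20380 genes with a read higher and 17.0% lower. Before adjustment 3 more genes, *F7*, *F11* and *Serpinc1*, had an edgeR p under 0.05, at 0.0157, 0.0224 and 0.0197, and DESeq2 called 2 of the 10 higher and 2 lower, where it called 22.4% and 23.7% of the genes to which it gave an adjusted p. In ABpIF/F vs Ctrl 3 of the 10 were higher, all of them fibrinogen chains, and 0 lower, against 12.9% and 9.82% of genes with a read. Before adjustment, *F11* was also higher (edgeR p = 0.0395) and *Serpinc1* lower (edgeR p = 0.0248) there, and DESeq2 called 3 higher and 1 lower, against 17.5% and 14.6% of genes. The 3 chains also passed an adjusted p under 0.01 with at least a 2-fold change, as did 6.06% of genes with a read in that direction. In ABpIF/+ vs ABpIF/F 1 gene (*F11*) was lower and 0 higher, against 14.3% and 9.95%. Before adjustment, *Fga*, *Fgb* and *Fgg* were also lower at an edgeR p of 0.0207, 0.0331 and 0.0281, no gene was higher at a p under 0.05 (the smallest was 0.0759, for *F10*), and DESeq2 called 0 higher and 2 lower (*F11* and *Fga*), against 14.7% and 19.1% of genes. Ranges that did not overlap were found for 1 of 10 genes as higher in ABpIF/+ vs Ctrl, against 10.4% of genes with a read. They were found for 3 of 10 as higher in ABpIF/F vs Ctrl, against 12.4%. In ABpIF/+ vs ABpIF/F they were found for 1 of 10 as lower, against 12.7%. In the opposite directions they were found for 0, where 10.8%, 10.5% and 12.2% of genes with a read did so. The members are abundant, and among 7830 genes that averaged 10 CPM or more the called shares were 25.3% higher and 23.7% lower in ABpIF/+ vs Ctrl, 12.2% and 21.6% in ABpIF/F vs Ctrl and 20.9% and 10.8% in ABpIF/+ vs ABpIF/F. The comparisons with Ctrl share the 6 Ctrl mice and are not independent. The median log2 fold change of the 10 was 0.29, 0.16 and -0.13 in the 3 comparisons, against 0.00, 0.09 and -0.05 over all genes with a read.

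**Figure D3:**
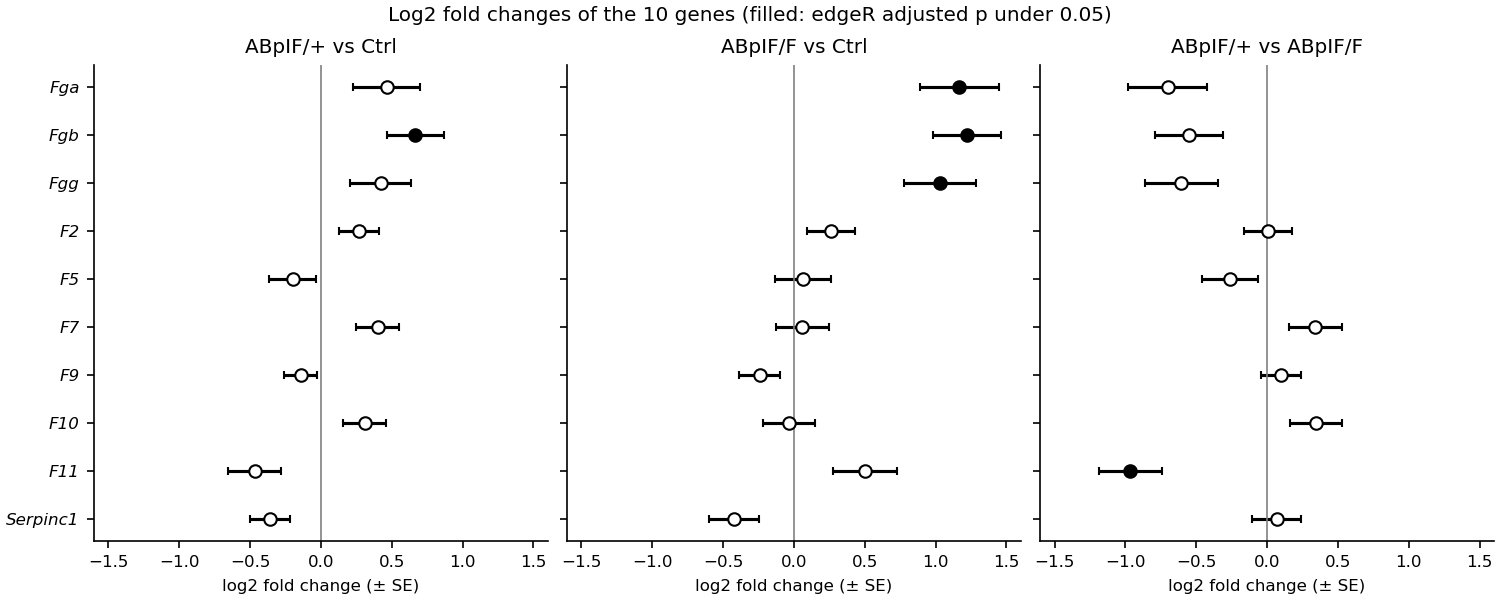
Log2 fold changes of the 10 genes (x axis, points) with their standard errors (bars) in the 3 comparisons, filled where the edgeR adjusted p is under 0.05. The filled points are *Fgb* in ABpIF/+ vs Ctrl, the 3 fibrinogen genes in ABpIF/F vs Ctrl and *F11* in ABpIF/+ vs ABpIF/F.

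Per kilobase of exon (union of GENCODE exons), the level in Ctrl mice was highest for *Fgg*, at 1530 ± 201 (SD, n = 6) CPM per kb, and *Fga*, at 1325 ± 183, whose ranges of 1 SD overlapped. *Fgb* followed at 635 ± 79.0, *F2* at 409 ± 52.9, *Serpinc1* at 255 ± 28.9 and *F10* at 171 ± 28.4. *F7* at 88.2 ± 12.6, *F5* at 84.6 ± 22.8 and *F9* at 77.2 ± 9.54 did not differ beyond their spread, and *F11* was lowest at 42.6 ± 13.7. In ABpIF/F mice *Fgg* was at 3124 ± 1631 and *Fga* at 2975 ± 1592 CPM per kb (SD, n = 3), and *F2* at 491 ± 94.8, while *F11* at 60.3 ± 12.0 and *F9* at 65.3 ± 9.18 did not differ beyond their spread. The order of *F2* and *Serpinc1* in Ctrl rests on the exon lengths used, 4594 and 8546 bases. Before division by length *Serpinc1* was above *F2* there, at 2178 and 1880 CPM on average. *Fgb*, over 3810 bases, was at 2418 CPM on average in Ctrl, so its distance from *Serpinc1* per kb also rests on these lengths.

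How alike 2 genes were over the 15 mice was measured as the root mean square difference of their centred log2 CPM, which is 0 for the same pattern. *Fga* and *Fgg* were nearest among the members, at 0.104, and *F7* and *F10* next at 0.155, then *Fga* and *Fgb* at 0.164, *F2* and *F10* at 0.183 and *Fgb* and *Fgg* at 0.190. *Serpinc1* was far from the chains, at 0.657 to 0.734. Among 12201 genes averaging 1 CPM or more, *Hpx*, the gene of the heme carrier hemopexin, was nearest to the mean of the 3 chains, at 0.177. *Hpx* was at 2413 to 3370 CPM in Ctrl, 3672 to 7561 in ABpIF/+ and 4615 to 10630 in ABpIF/F mice, with its maxima in BG40 and BG90, and rose in both comparisons with Ctrl (0.72 and 1.18, edgeR adjusted p = 0.0137 and 0.00168), although neither call held with the strain label as a term, nor the former without BG40 and the latter without BG90 or with the clock score. The next nearest were *Tubb6* (0.231), *H6pd* (0.238), *Slc44a1* (0.249) and *Chpf2* (0.253). *Plg*, the gene of plasminogen, from which the fibrin-cutting protease is made, was nearest to *F2* (0.107), *Anpep* to *F11* (0.241) and *Cdadc1* to *Serpinc1* (0.0942). The nearest genes were *Reps2* for *F5* (0.114), *Rab3a* for *F7* (0.161), *Gnai3* for *F9* (0.0937) and *Fkbp8* for *F10* (0.114). These are descriptions over 15 mice that share 3 groups.

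Genes next to the members did not share their pattern throughout. *Plrg1*, on the other side of *Fgb*, was at 19.3, 20.6 and 22.1 CPM on average in Ctrl, ABpIF/+ and ABpIF/F mice, with log2 fold changes of 0.10 and 0.20 against Ctrl (edgeR adjusted p = 0.656 and 0.392). *Lrat*, on the other side of *Fgg* and a gene of stellate cells, fell in ABpIF/+ mice to 3.16 from 17.8 CPM in Ctrl (log2 fold change -2.48, edgeR adjusted p = 4.18e-08), and was at 11.7 in ABpIF/F mice. *Klkb1*, next to *F11* and encoding plasma prekallikrein, fell in both mutant groups, from 191 CPM in Ctrl to 116 in ABpIF/+ (-0.72, edgeR adjusted p = 0.00019) and 122 in ABpIF/F mice (-0.65, edgeR adjusted p = 0.00688), neither of which passed with the strain label as a term, nor the latter without BG38, without BG90 or with the clock score. *Proz*, next to *F10* and encoding protein Z, was at 318, 309.5 and 294 CPM and passed in no comparison (edgeR adjusted p of at least 0.907). *Zfp408*, next to *F2*, rose in both mutant groups (0.69 and 0.68, edgeR adjusted p = 0.00177 and 0.0119), where *F2* had the same direction without passing. The latter call was lost without BG38, without BG90 or with the clock score. *Lrp4* (by *F2*), *Selp* and *Slc19a2* (by *F5*), *Mcf2l* (by *F7*) and *Zbtb37* (by *Serpinc1*) also passed in a comparison with Ctrl.

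Factors II, VII, IX and X need vitamin K dependent carboxylation and removal of their propeptides before they work. Of 7 genes of this machinery, 1 rose and 2 fell in ABpIF/+ vs Ctrl, 0 rose and 3 fell in ABpIF/F vs Ctrl, and 3 were higher and 1 lower in ABpIF/+ vs ABpIF/F. Over all genes with a read, 17.0% rose and 17.0% fell in the first of these comparisons, 12.9% and 9.82% in the second, and 9.95% were higher and 14.3% lower in the last. The median log2 fold change of the 7 genes was 0.04, -0.19 and 0.36. *Ggcx*, the carboxylase itself, was at 62.4 to 87.3 CPM in Ctrl, 24.0 to 48.1 in ABpIF/+ and 62.3 to 97.1 in ABpIF/F mice. It was thus lower in every ABpIF/+ mouse than in any other mouse, at 37.4 CPM on average against 74.7 in Ctrl (edgeR adjusted p = 2.18e-05) and with a log2 fold change of -1.10 (SE 0.18, edgeR adjusted p = 0.000143) from ABpIF/F. *Furin*, a propeptide protease, was at 187 to 257, 368 to 532 and 176 to 301 CPM, and so was higher in every ABpIF/+ mouse than in any other (0.94 from Ctrl, edgeR adjusted p = 1.9e-05, and 0.87 from ABpIF/F, edgeR adjusted p = 0.00123). *Pcsk6*, another protease of this family, fell in both groups from 129 to 84.6 and 80.5 CPM (-0.61 and -0.68, edgeR adjusted p = 0.00109 and 0.00478). *Vkorc1*, the vitamin K epoxide reductase, and *Aifm2*, which also reduces vitamin K, were lower in ABpIF/F mice as compared to Ctrl (-0.72 and -0.58, edgeR adjusted p = 0.0130 and 0.00496). *Vkorc1* was highest in BG3, at 214 CPM, and at 115 to 170 in the other Ctrl mice. *Ggcx* and *Pcsk6* did not pass with the strain label as a term in ABpIF/+ vs Ctrl, nor *Pcsk6* and *Aifm2* in ABpIF/F vs Ctrl. Without BG38 neither *Vkorc1* nor *Pcsk6* passed in ABpIF/F vs Ctrl, and with the clock score *Furin* did not pass in ABpIF/+ vs ABpIF/F, nor *Pcsk6* and *Aifm2* in ABpIF/F vs Ctrl.

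Of 7 other procoagulant genes and genes of their secretion, 0 rose and 3 fell in ABpIF/+ vs Ctrl, where 17.0% of genes with a read and 23.7% of genes at 10 CPM or more fell, and their median log2 fold change was -0.52. These were *F13b*, the gene of the carrier subunit of the factor that cross-links fibrin, *Vwf*, which is made by endothelial cells, and *Lman1*, the cargo receptor for factors V and VIII. *F13b* was at 230 to 315 CPM in Ctrl, 155 to 199.9 in ABpIF/+ and 141 to 187 in ABpIF/F mice, and fell in both comparisons with Ctrl (-0.59 and -0.81, edgeR adjusted p = 0.000423 and 0.000331), with no overlap. The latter was lost with the clock score. *Vwf* was at 7.45 and 4.74 CPM on average in Ctrl and ABpIF/+ mice (-0.65, edgeR adjusted p = 0.0229), and *Lman1* at 267 and 187 (-0.52, edgeR adjusted p = 0.0162). With the strain label as a term none of the 3 passed in ABpIF/+ vs Ctrl, nor did *Vwf* without BG31 or without malpa458. *Vwf* is itself 1 of the 7 endothelial markers used here. These summed to 153 to 229 CPM in Ctrl and 75.0 to 173 in ABpIF/+ mice, with 4 of 7 lower, *Vwf* included. The part of the other endothelial markers in the *Vwf* result was not tested. *F13a1*, the gene of the catalytic subunit, which is made by macrophages and platelets rather than hepatocytes, was at 0.392, 4.07 and 4.72 CPM in BG183, BG38 and BG90 and at 0.735 or less in the other mice. It was the 1 gene of the list that rose in ABpIF/F vs Ctrl (3.96, edgeR adjusted p = 0.000209), where 12.9% of genes with a read rose, and it did not pass with the strain label as a term or with the clock score. Kupffer cell and macrophage markers (7 genes) summed to 180 CPM in BG183 and 376 in BG38, with BG90 between them. They were at 225 to 310 in Ctrl and 96.4 to 155 in ABpIF/+ mice. Summed platelet markers (7 genes) were at 3.24 to 6.81 in Ctrl, 6.27 to 12.5 in ABpIF/+ and 5.39 to 17.8 in ABpIF/F mice. Summed neutrophil markers (7 genes) were at 4.44 CPM in BG183 and 79.9 in BG38, with BG90 between them, against 2.23 to 8.18 in the other groups. The part of these markers in the *F13a1* result was not tested.

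Of 9 natural anticoagulant genes, 1 rose and 2 fell in ABpIF/+ vs Ctrl, and 2 rose and 0 fell in ABpIF/F vs Ctrl, with medians of -0.04 and 0.01 on the log2 scale. These counts were near the shares over all genes with a read, 17.0% and 17.0% in the former and 12.9% and 9.82% in the latter comparison. *Pros1*, the gene of protein S, rose from 60.4 to 81.7 and 84.5 CPM (0.44 and 0.48, edgeR adjusted p = 0.0221 and 0.0490). *Serpind1*, the gene of heparin cofactor II, another thrombin inhibitor, was at 471 to 586 CPM in Ctrl and rose in ABpIF/F mice to 739 to 1027, with no overlap (0.74, edgeR adjusted p = 0.00187). *Tfpi*, the inhibitor of the tissue factor pathway, fell in ABpIF/+ mice from 6.89 to 4.53 CPM (-0.60, edgeR adjusted p = 0.0259). In ABpIF/+ vs ABpIF/F 0 of the 9 genes were higher and 1 lower, where 9.95% and 14.3% of genes with a read were. *Procr*, the protein C receptor of endothelial cells, was lower in ABpIF/+ than in ABpIF/F mice (0.354 and 1.32 CPM, -1.86, edgeR adjusted p = 0.0155). The part of the endothelial markers in the *Tfpi* and *Procr* results was not tested. *Pros1*, *Serpind1* and *Tfpi* did not pass with the strain label as a term, and *Pros1* was also lost by library size alone in both comparisons and without BG40 in ABpIF/+ vs Ctrl or any of 12 of the 15 mice in ABpIF/F vs Ctrl. *Tfpi* was lost without each of 4 mice (BG40, BG55, malpa387 and malpa458), and *Procr* without BG38, without BG90 or with the clock score.

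Clotting proteases signal to cells through protease-activated receptors (PARs), of which PAR1, PAR3 and PAR4 are cut by thrombin and PAR2 by other proteases such as factors VII and X. Of the 4 PAR genes, *F2r* and *F2rl1* rose in each comparison with Ctrl and were lower in ABpIF/+ than in ABpIF/F mice, where 17.0%, 12.9% and 14.3% of genes with a read were called in these directions. *F2rl2* and *F2rl3*, the genes of PAR3 and PAR4, were at 0.720 CPM or less in every mouse and did not pass in any comparison. *F2r*, which encodes PAR1, was at 10.5 to 16.0 CPM in Ctrl, 18.3 to 34.8 in ABpIF/+ and 47.6 to 61.5 in ABpIF/F mice, with no overlap between any groups. Its log2 fold change was 1.27 in ABpIF/+ vs Ctrl (SE 0.14, edgeR adjusted p = 4.08e-07), 2.15 in ABpIF/F vs Ctrl (SE 0.16, edgeR adjusted p = 5.84e-09) and -0.87 in ABpIF/+ vs ABpIF/F (SE 0.17, edgeR adjusted p = 0.00063). *F2rl1*, which encodes PAR2, had the same order at 0.246 to 0.636, 0.641 to 2.17 and 2.54 to 11.5 CPM, and passed in all 3 comparisons (edgeR adjusted p from 1.42e-06 to 0.0018). *F2r* passed in all 3 under every setting tried at this threshold, whereas *F2rl1* did not pass in ABpIF/+ vs Ctrl with the strain label as a term, nor in ABpIF/+ vs ABpIF/F without BG38. Summed cholangiocyte markers (7 genes) were at 49.4 to 87.9 CPM in Ctrl, 54.7 to 175.5 in ABpIF/+ and 236 to 1195 in ABpIF/F mice. Most of the sum in ABpIF/F mice was *Spp1*, at 175, 1081 and 724 CPM in BG183, BG38 and BG90. Of the 7 genes 2 rose and 1 fell in ABpIF/+ vs Ctrl, where 17.0% and 17.0% of genes with a read did. In ABpIF/F vs Ctrl 6 rose and 0 fell, where 12.9% and 9.82% did. The part of these markers in the receptor results was not tested.

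Fibrinogen was set beside a list of 18 genes of interleukin-6 signalling and the acute phase, of which 6 rose and 3 fell in ABpIF/+ vs Ctrl and 7 rose and 1 fell in ABpIF/F vs Ctrl. Of all genes with a read 17.0% rose and 17.0% fell in the former comparison and 12.9% rose and 9.82% fell in the latter, and the median log2 fold change of the list was 0.37 and 1.15. *Hp*, the hemoglobin carrier haptoglobin, was at 1193 to 1709 CPM in Ctrl, 3814 to 9104 in ABpIF/+ and 3111 to 9271 in ABpIF/F mice (2.08 and 1.99 against Ctrl, edgeR adjusted p = 2.35e-06 and 4e-05). *Lcn2*, the iron-binding lipocalin 2, was at 5.84 to 10.0, 121 to 891 and 209 to 1069 CPM (5.68 and 6.23, edgeR adjusted p = 1.98e-05 and 3.37e-05). *Apcs*, the gene of serum amyloid P, rose from 116 to 536 and 670 CPM and *Serpina3n* from 333 to 1699 and 1318 CPM (edgeR adjusted p of 2.33e-05 or less in each). *Socs3*, the feedback inhibitor of the interleukin-6 receptor, rose from 4.19 CPM in Ctrl to 20.9 in ABpIF/+ and 15.2 in ABpIF/F mice (2.31 and 1.85, edgeR adjusted p = 0.00301 and 0.0359). The 3 genes that fell in ABpIF/+ vs Ctrl, named after their values were seen, were *Il6st*, the shared receptor chain (-0.77, edgeR adjusted p = 0.000729), *Crp*, the gene of C-reactive protein, with no overlap (-0.63, edgeR adjusted p = 0.00162), and *Saa3* (-1.13, edgeR adjusted p = 0.0135). In ABpIF/+ vs ABpIF/F 1 of the 18 genes was higher and 1 lower, where 9.95% and 14.3% of genes with a read were. *Cebpb* was lower in ABpIF/F than in ABpIF/+ mice (25.4 and 70.9 CPM, 1.48 in ABpIF/+ vs ABpIF/F, edgeR adjusted p = 0.0285), and *Il6st* was higher (106 and 72.5 CPM, -0.55, edgeR adjusted p = 0.0470). *Il6* itself was at 0.214 CPM or less in every mouse. With the strain label as a term *Socs3*, *Il6st* and *Crp* did not pass in ABpIF/+ vs Ctrl, nor *Hp* and *Socs3* in ABpIF/F vs Ctrl, and *Socs3* there and *Il6st* in ABpIF/+ vs ABpIF/F were lost without each of 7 and 11 mice. *Cebpb* in ABpIF/+ vs ABpIF/F was lost without BG55, BG183, BG38 or BG90 and with the clock score.

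*Saa1*, named after its values were seen, was at 202 CPM in BG40 and 492 in BG90, at 20.0 to 33.4 in Ctrl mice and at 2.05 to 19.2 in the other 7 mutant mice. *Orm2*, also named after its values were seen, was at 89.5 CPM in BG40 and 352 in BG90, at 16.7 to 27.6 in Ctrl and at 0.479 to 15.9 in the other mutant mice. Neither gene passed the test in any comparison (edgeR adjusted p of at least 0.263). *Saa2* and *Orm1* of the same list were also highest in these mice, at 129.5 and 863.5 CPM in BG40 and 296 and 1870.0 in BG90, against at most 23.7 and 838 in the others. *Crp* did not follow, at 236 CPM in BG40, below the Ctrl range of 346 to 446, and 476 in BG90, above it. *Saa3* was at 2.40 CPM in BG40 and 3.11 in BG90, within the Ctrl range of 2.31 to 4.68. *Socs3* was highest in BG40, at 48.1 CPM, but was at 28.7 in BG55, whose fibrinogen sum was 13361 CPM, and at 28.6 in BG90. In BG30, the ABpIF/+ mouse with the least fibrinogen RNA, *Saa1* was at 2.73 and *Socs3* at 11.3 CPM, while *Lcn2*, at 335 CPM, was above every Ctrl mouse. What set BG40 and BG90 apart was not tested.

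**Figure D4:**
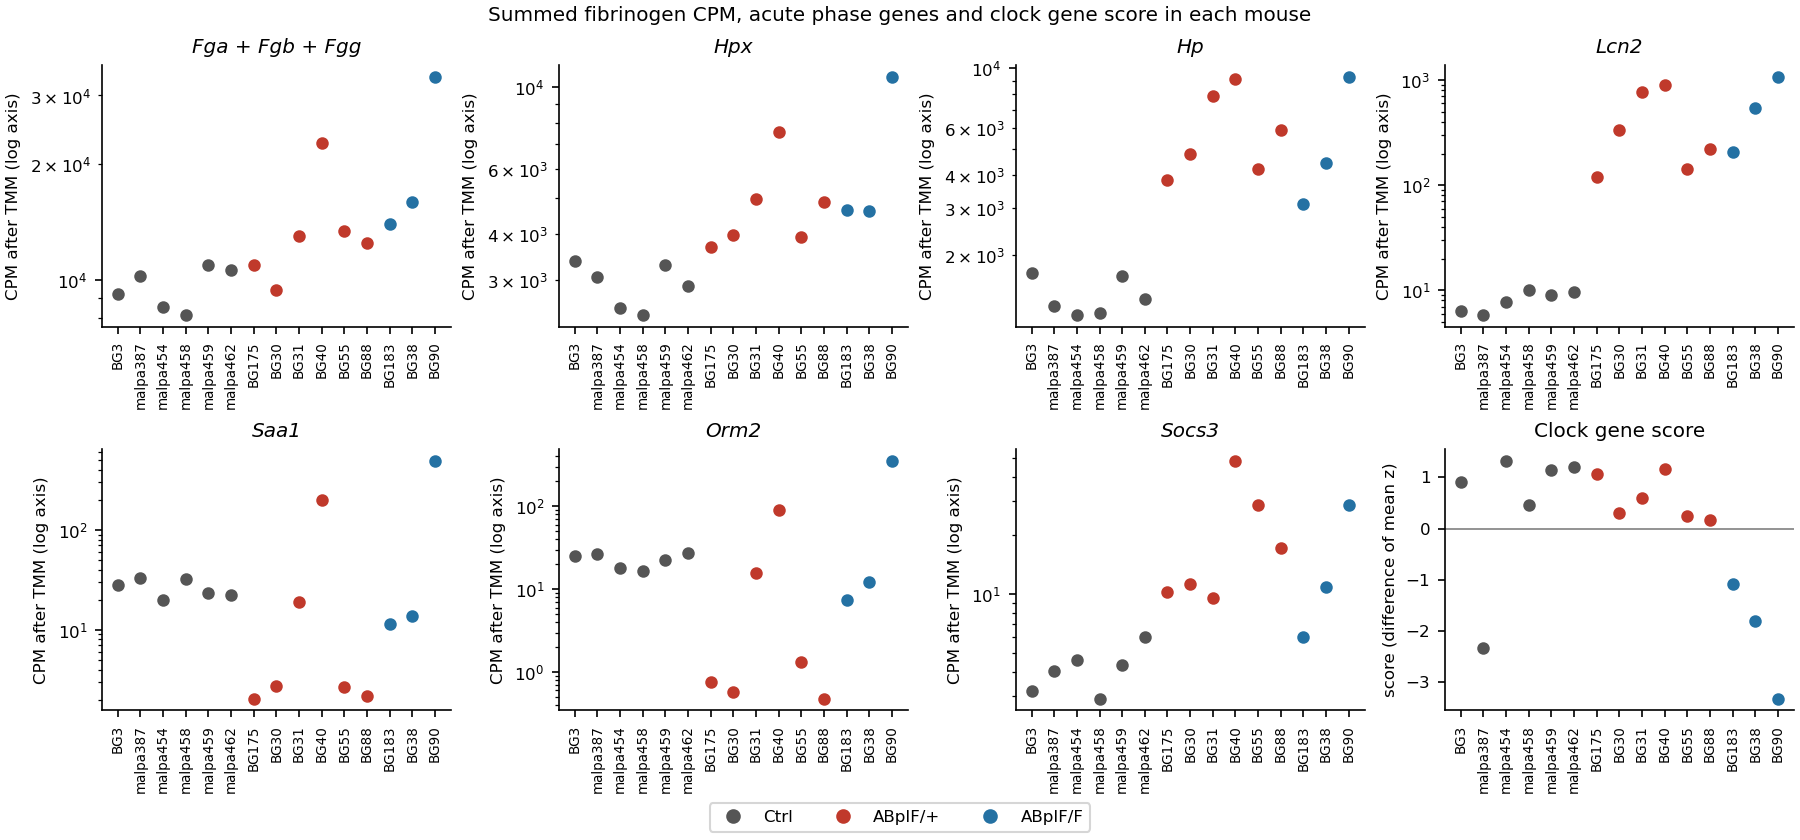
Summed CPM of the 3 fibrinogen genes, CPM of 6 acute phase and interleukin-6 response genes (log axes) and the clock gene score (linear axis) in each of the 15 mice (x axis, colored by group). BG40 and BG90 are the highest 2 mice for the fibrinogen sum, at 22637 and 33460 CPM, and for *Hpx*, *Saa1* and *Orm2*, and the 3 ABpIF/F mice and the Ctrl mouse malpa387 have clock scores below 0.

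The groups also differed in clock genes. The clock score, the mean z of 9 evening genes such as *Dbp*, *Tef* and *Per2* minus that of 5 morning genes such as *Arntl*, was -1.08, -1.81 and -3.31 in BG183, BG38 and BG90 and 0.158 to 1.15 in ABpIF/+ mice. It was 0.459 to 1.32 in 5 Ctrl mice and -2.33 in malpa387. Of the 9 evening genes 7 fell in ABpIF/F vs Ctrl, where 9.82% of genes with a read fell, *Per3* from 65.8 to 5.96 CPM among them (-3.46, edgeR adjusted p = 0.0160), whereas 1 rose in ABpIF/+ vs Ctrl (17.0% of genes with a read), *Per1*, from 41.8 to 127 CPM (1.61, edgeR adjusted p = 0.000107). Both calls were lost with the strain label as a term, and that of *Per3* also without BG38 or without BG90. The fibrinogen sum of malpa387, at 10224 CPM, was within the Ctrl range of 8141 to 10946, and its *F11*, at 47.9 CPM, was the lowest of all mice. With the clock score as a covariate the chains no longer passed in ABpIF/F vs Ctrl (*Fga* 0.92, *Fgb* 1.10 and *Fgg* 0.65, edgeR adjusted p from 0.0995 to 0.432), while *F11* passed there at 1.24 (edgeR adjusted p = 0.00562) and was at -1.69 in ABpIF/+ vs ABpIF/F (edgeR adjusted p = 0.000813). In ABpIF/F vs Ctrl the SE grew with this covariate to 0.46 for *Fga*, 0.40 for *Fgb* and 0.40 for *Fgg*, from 0.28, 0.24 and 0.26. Outside the ABpIF/F group only malpa387 had a score below 0. Clock score and ABpIF/F genotype can therefore hardly be told apart in this fit, also where other calls were lost with it. Time of tissue collection was not given in the sources used here, and what the clock genes contribute was not tested further.

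Of 10 hepatocyte transcription factor genes, 3 rose and 1 fell in ABpIF/+ vs Ctrl and 0 rose and 1 fell in ABpIF/F vs Ctrl. Among genes at 10 CPM or more, 25.3% rose and 23.7% fell in the former and 12.2% rose and 21.6% fell in the latter comparison, so these counts were near or below the shares over all abundant genes. In ABpIF/+ vs ABpIF/F 2 of the 10 were higher and 0 lower, where 20.9% and 10.8% of genes at 10 CPM or more were. *Hnf4a*, a regulator of many clotting factor genes, was at 495 to 672 CPM in Ctrl, 694 to 1108 in ABpIF/+ and 439 to 623 in ABpIF/F mice, and was thus higher in every ABpIF/+ mouse than in any other (0.51 from Ctrl, edgeR adjusted p = 0.00789, and 0.72 from ABpIF/F, edgeR adjusted p = 0.00526). *Foxa2* and *Foxa3* rose in ABpIF/+ mice (0.59 and 0.90, edgeR adjusted p = 0.00327 and 0.0186), and *Cebpa* fell, from 424 to 301 CPM (-0.49, edgeR adjusted p = 0.0497). *Nr1h4*, the bile acid receptor gene and a known regulator of the fibrinogen genes, fell in ABpIF/F mice from 126 to 73.2 CPM (-0.78, edgeR adjusted p = 0.00649). *Hnf4a*, *Foxa2* and *Foxa3* did not pass with the strain label as a term in ABpIF/+ vs Ctrl, and *Hnf4a* and *Foxa3* were also lost by library size alone. *Cebpa* was lost without each of 10 mice, *Nr1h4* without BG38, without BG90, with the strain label or with the clock score, and *Hnf4a* in ABpIF/+ vs ABpIF/F with the clock score.

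Markers of other liver cells moved with the groups as well. Stellate cell markers summed to 164 to 225 CPM in Ctrl, 39.7 to 84.2 in ABpIF/+ and 150 to 253 in ABpIF/F mice, with all 7 genes lower in ABpIF/+ vs Ctrl, as were 17.0% of genes with a read. Kupffer cell and macrophage markers summed to 225 to 310, 96.4 to 155 and 180 to 376 CPM, and endothelial markers to 153 to 229, 75.0 to 173 and 177 to 248. Lymphocyte markers summed to 0.363 to 2.27 CPM in ABpIF/+ and 2.86 to 11.6 in the other mice, and red blood cell markers (6 genes found) to 32.7 to 239 over all mice. Of the 8 hepatocyte markers 3 rose and 3 fell in ABpIF/+ vs Ctrl, and 1 rose and 4 fell in ABpIF/F vs Ctrl, where 25.3% and 23.7%, and 12.2% and 21.6%, of genes at 10 CPM or more did so. No marker gene was at 0 in all 15 mice, and the part of cell composition in the values of the 10 genes was not tested.

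**Figure D5:**
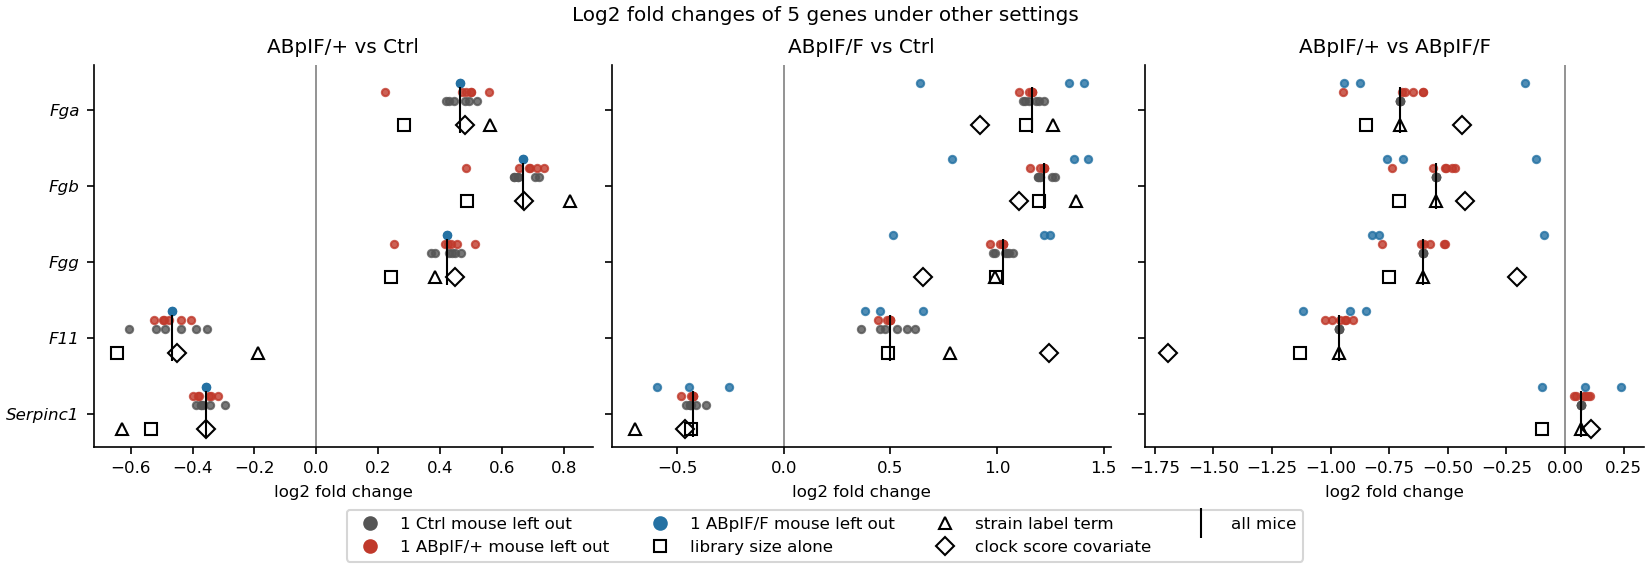
Log2 fold changes (x axis) of *Fga*, *Fgb*, *Fgg*, *F11* and *Serpinc1* in the 3 comparisons with all mice (vertical bars), without each mouse in turn (points, colored by the group of the mouse left out) and under 3 other settings (open symbols). Without BG90 the 3 chains move to between 0.51 and 0.79 in ABpIF/F vs Ctrl, and with the clock score as a covariate *F11* moves to -1.69 in ABpIF/+ vs ABpIF/F.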

How the data were processed

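The deposited values are raw counts per gene and mouse, without normalization. Stranded mRNA libraries were made and sequenced by the Novogene Company. The authors aligned paired-end reads to mm10 with HISAT2 and counted them with featureCounts 2.0.8. Annotation and strand setting of the counting were not given in the sources used here. The 23 listed samples name 15 mice, of which 8 were named by 2 samples, while the counts hold 1 column per mouse. How the 2 samples of a mouse were combined was not given in the sources used here. Named by 1 sample were all Ctrl mice but BG3, and the ABpIF/+ mice BG31 and BG40. The number of samples per mouse thus partly follows the groups. In a second deposited table, 10 columns held the same counts, 5 columns under bare numbers were not used, and the authors' fold changes and p-values were not used.

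From the counts, edgeR 4.0.16 in R 4.3.3 (all 27179 genes, TMM, robust quasi-likelihood F-test in the form of edgeR 3.36, 3 groups in 1 fit) gave log2 fold changes, SE and p-values adjusted by Benjamini-Hochberg over all genes. A gene passed at an adjusted p under 0.05. CPM are counts relative to the TMM-scaled library size. Depths were 24742910 to 32262649 counts per mouse. On simulated data for ABpIF/+ vs Ctrl (27179 genes), 40.3% of 67 genes changed 1.5-fold, 91.0% of 67 changed 2-fold and 100% of 66 changed 4-fold were recovered. Ratios of counts were tested by exact permutation over mice. Alternatives were RLE and no scaling factors, DESeq2 1.42.0, filterByExpr, estimation without the robust option, the newer form of the test in edgeR 4, only the groups compared, the strain label, the clock score, a stricter threshold and leaving out mice. Of each gene list, up to 4 genes with the largest called differences and at least 1 CPM in a group were named per comparison. The members and lists were chosen with earlier results of these data known.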

Additional observations from a re-analysis of the deposited data

Results flagged for a closer look

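In 4 of 28 groups of mice examined, a mouse stood apart from the other 5 of its group by Dixon's criterion, which chance meets in about 1 of 20 groups. The 28 are genes and ratios of these genes over the same mice. They are not independent, so the number flagged cannot be set directly against that share. The ABpIF/+ mouse BG40 was the highest of its group for *Fga*, at 9779 CPM, with 71.4% of the group's range between it and the next mouse. It was also the highest for *Fgb*, at 6149 CPM, and for the ratio of *Fga* to *Fgg* counts, at 1.46. The Ctrl mouse BG3, the only Ctrl mouse with the strain label of the mutants, was the highest Ctrl mouse for *F2*, at 2371 CPM. The groups of 3 ABpIF/F mice were not examined in this way.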

How the results depend on the processing

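No paired analysis was possible because the numbers in the sample titles name libraries of 1 mouse and pair no mice of different groups. Scaling by library size alone moved the median of all fold changes by -0.175 in ABpIF/+ vs Ctrl and -0.186 in ABpIF/+ vs ABpIF/F (log2). The effect of depth was not tested by thinning counts, and the least abundant member, *F11*, was at 47.9 CPM or more in every mouse.

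Members higher in ABpIF/+ vs Ctrl numbered 1, and 0 by library size alone, with the strain label as a term and at the stricter threshold, 2 by DESeq2 and in the fit of only the groups compared, and 0 to 3 when 1 mouse was left out. Members lower numbered 0, and 3 by library size alone, 2 by DESeq2 and after filterByExpr, 1 in the fit of only the groups compared and with the clock score, and 0 to 1 when 1 mouse was left out. In ABpIF/F vs Ctrl 3 were higher, and 0 with the strain label, 1 with the clock score, 1 without BG40 and BG90 together (chosen after seeing the data) and 1 to 3 when 1 mouse was left out. The 1 member higher with the clock score was *F11*, and none of the 3 chains passed with it. Members lower numbered 0, and 1 by library size alone, DESeq2 and filterByExpr, and 0 to 1 when 1 mouse was left out. In ABpIF/+ vs ABpIF/F 1 was lower, and 4 by library size alone, 2 by DESeq2, 0 at the stricter threshold and 1 to 4 when 1 mouse was left out, and 0 were higher under every setting.

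Of the called differences of the list genes and neighbours, 33 in ABpIF/+ vs Ctrl, 31 in ABpIF/F vs Ctrl and 28 in ABpIF/+ vs ABpIF/F, the strain label as a term ended 22, 20 and 0, the clock score 1, 21 and 18, library size alone 4, 1 and 3, DESeq2 0, 0 and 2, and leaving out BG40 and BG90 together 6, 10 and 11. At least 1 mouse left out ended 9, 14 and 13 of them. Clock score and ABpIF/F genotype can hardly be told apart, so the calls ended by the score do not separate them.

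Signs turned only for differences that had not passed, apart from the clock gene *Per2* (0.28 in ABpIF/F vs Ctrl with the clock score, of which it is part) and *Clock* (0.25 in ABpIF/+ vs Ctrl with the strain label). With the strain label *F2* was at -0.065, *F5* at 0.39 and *F10* at -0.077 in ABpIF/+ vs Ctrl, and *F2* at -0.071 and *F7* at -0.24 in ABpIF/F vs Ctrl. Without BG40 and BG90 *F7* was at -0.18 there. In ABpIF/+ vs ABpIF/F *F2* was at -0.0058 with RLE and with DESeq2, at -0.013 with only the groups compared and at -0.16 by library size alone, which also gave -0.079 for *F9* and -0.098 for *Serpinc1*, and *F9* was at -0.018 with the clock score. When 1 mouse was left out, *F5* ran from -0.030 to 0.16, *F7* from -0.18 to 0.33 and *F10* from -0.23 to 0.19 in ABpIF/F vs Ctrl, and *F2* from -0.14 to 0.13 and *Serpinc1* from -0.099 to 0.24 in ABpIF/+ vs ABpIF/F. The log2 ratio differences that turned when 1 mouse was left out ran from -0.026 to 0.042 for *Fga* to *Fgg* in ABpIF/+ vs Ctrl, and from -0.087 to 0.028 for *Fgg* to *Fgb* and from -0.18 to 0.012 for *F2* to *Serpinc1* in ABpIF/+ vs ABpIF/F. The cause was not tested in any of these.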
